A study of Mus musculus with 11 samples.

Results

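Levels of 10 genes of antigen presentation and dendritic cells were followed through thymic lymphomas and thymocytes of FVB mice. The genes are Cd74, H2-Aa, H2-Ab1, H2-Eb1, H2-DMa, H2-DMb1, Ciita, Itgax, Flt3l and Siglech, and their array probe sets were taken wherever the platform annotation gives that symbol and no other. This found 9 of the 10 genes, with 1 probe set each, among 28939 tested probe sets that cover 19938 singly named genes. H2-DMb1 lies only on a probe set that it shares with H2-DMb2, which is described separately and is not counted among the 9.

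The study asked what loss of the DNA methyltransferase Dnmt3b does in lymphomas driven by MYC, and measured 1 whole-transcript array for each of 11 samples. The Dnmt3b-deficient lymphomas (n = 3) came from mice that were Dnmt3b-/- and carried EμSR-tTA, Teto-MYC and Teto-Cre. The wild-type lymphomas (n = 3) came from mice that were Dnmt3bF/F, with a floxed gene, and carried EμSR-tTA and Teto-MYC but no Cre transgene. The pre-tumor Dnmt3b-deficient thymocytes (n = 2) had the genotype of the Dnmt3b-deficient lymphomas and were taken at 24 days of age. The normal thymocytes (n = 3), also taken at 24 days, came from mice that were Dnmt3b+/+ and carried EμSR-tTA and Teto-Cre but no MYC transgene. All 4 groups carry the EμSR-tTA activator, which is expressed in blood cells, and the Rosa26LOXPEGFP reporter. Tumors were taken when disease was apparent and were not sorted, whereas the pre-tumor thymi were sorted for EGFP. The labels leave unclear if normal thymocytes were sorted too. Age therefore follows the stage, and sorting differs between the lymphomas and the pre-tumor samples. Whether sorting also separates the pre-tumor from the normal samples is not known. Cre and Dnmt3b loss occur in the same tumors. The labels call the samples of a group biological replicates, without naming the animals.

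Levels are log2 values as deposited, with a floor of 3.32 below which no value is given. Between 23.6% and 25.7% of the values of an array lie at this floor, and array medians lay between 4.55 and 4.62. None of the 9 genes was at the floor on any array. The Dnmt3b probe set read 5.26, 5.49 and 5.40 in the Dnmt3b-deficient lymphomas and 5.36, 5.59 and 5.70 in the wild-type lymphomas, so the groups overlapped. It read 5.07 and 5.24 in the pre-tumor thymocytes and 5.22, 5.31 and 5.30 in the normal thymocytes. It is not known here if the probes lie in the deleted exons, so this does not check the genotype. T cell and thymocyte markers were above the floor on all arrays.

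MHC class II molecules present peptides from the endosomal route to CD4+ T cells, and are made mainly by dendritic cells, B cells, macrophages and thymic epithelium. The α and β chains pair in the endoplasmic reticulum with the invariant chain, encoded by Cd74. H2-DM then exchanges the remaining invariant chain fragment for peptide in endosomes. The coactivator Ciita switches the genes on together. It is recruited by the RFX complex and NF-Y, which sit on the X box and the Y box of class II promoters. In the thymus, class II on epithelium and dendritic cells selects CD4+ thymocytes, and mouse thymocytes themselves show little of it.

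The promoters of 3 members and of H2-Eb2 are shown because they carry the 2 boxes in the arrangement by which this gene family is regulated, and because H2-Aa and H2-Eb2 moved in opposite directions in the Dnmt3b-deficient lymphomas. The RefSeq table of assembly GRCm38.p6 held a promoter window for 7 of the 10 members. Cd74, H2-Ab1 and Ciita were not in it. The 250 bases before the gene start were searched on both strands for the X box core CNNGNAAC followed by the Y box TGATTGG after 10 to 40 other bases. Both boxes are printed in capitals, 5′ to 3′ in the direction of the gene:
H2-Aa (chr17:34287824-34288073, minus strand): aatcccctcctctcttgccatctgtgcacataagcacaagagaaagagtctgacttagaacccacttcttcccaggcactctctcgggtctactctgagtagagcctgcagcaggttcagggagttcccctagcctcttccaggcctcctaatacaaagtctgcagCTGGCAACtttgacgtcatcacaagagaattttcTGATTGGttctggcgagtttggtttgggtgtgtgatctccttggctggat
H2-Eb1 (chr17:34305617-34305866, plus strand): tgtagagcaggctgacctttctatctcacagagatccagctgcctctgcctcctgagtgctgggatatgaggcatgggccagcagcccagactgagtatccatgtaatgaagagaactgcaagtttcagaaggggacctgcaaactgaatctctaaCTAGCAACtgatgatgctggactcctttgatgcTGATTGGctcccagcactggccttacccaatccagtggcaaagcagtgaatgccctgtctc
H2-DMb1 (chr17:34152941-34153190, plus strand): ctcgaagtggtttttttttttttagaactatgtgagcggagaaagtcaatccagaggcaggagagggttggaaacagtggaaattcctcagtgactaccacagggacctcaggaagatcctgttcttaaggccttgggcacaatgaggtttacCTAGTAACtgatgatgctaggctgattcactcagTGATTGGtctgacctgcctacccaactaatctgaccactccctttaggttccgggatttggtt
H2-Eb2 (chr17:34325425-34325674, plus strand): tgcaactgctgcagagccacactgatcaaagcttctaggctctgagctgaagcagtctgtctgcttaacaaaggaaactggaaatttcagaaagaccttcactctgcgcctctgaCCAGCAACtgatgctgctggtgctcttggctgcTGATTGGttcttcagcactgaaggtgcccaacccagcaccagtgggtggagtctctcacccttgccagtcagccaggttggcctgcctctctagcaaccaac
In H2-Aa the X box began 84 bases and the Y box 50 bases before the gene start, with 26 bases between them. The spacing was 25 bases in H2-Eb1 and H2-Eb2 and 26 bases in H2-DMb1. The other class II genes H2-Oa and H2-Ob also held the arrangement, with 26 and 23 bases between the boxes. H2-DMb2 held both boxes but not in this arrangement, and the arrangement was not found in the windows of H2-DMa, Itgax, Flt3l and Siglech. Over 32851 RefSeq promoter windows of the same length, 33.3% held the X box core, 7.23% held the Y box and 0.216% held both in this order and spacing. The letters and the spacing were chosen after these promoters had been read, and a match describes the sequence only.

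The means of Cd74, H2-Aa and H2-Ab1 were lowest in the Dnmt3b-deficient lymphomas and highest in the normal thymocytes. Cd74, the invariant chain, had levels of 6.24, 5.89 and 5.57 in the Dnmt3b-deficient lymphomas and 7.66, 7.45 and 7.06 in the wild-type lymphomas. It had 6.80 and 6.92 in the pre-tumor thymocytes, against 8.19, 8.20 and 7.66 in the normal thymocytes. Every Dnmt3b-deficient lymphoma was below every other sample. The group means ran from 5.90 ± 0.34 in the Dnmt3b-deficient lymphomas through 6.86 in the pre-tumor samples and 7.39 ± 0.31 in the wild-type lymphomas to 8.02 ± 0.31 in the normal thymocytes (SD, n = 3 except 2 pre-tumor samples). The neighbours at the top of this order, the wild-type lymphomas and the normal thymocytes, did not differ at the threshold used below. Nor did those at the bottom, the Dnmt3b-deficient lymphomas and the pre-tumor samples. The pre-tumor samples and the wild-type lymphomas were not compared by a test.

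H2-Aa, the α chain of the A molecule, had levels of 6.18, 6.67 and 6.25 in the Dnmt3b-deficient lymphomas and 7.90, 7.81 and 7.12 in the wild-type lymphomas. The pre-tumor samples stood at 6.46 and 7.38, and the normal thymocytes at 8.54, 8.51 and 7.85. The 2 tumor groups did not overlap, whereas 1 pre-tumor sample lay among the Dnmt3b-deficient lymphomas. H2-Ab1, the β chain of the same molecule, had 6.44, 7.26 and 6.82 in the Dnmt3b-deficient lymphomas and 8.10, 8.15 and 7.16 in the wild-type lymphomas. Its pre-tumor levels were 6.77 and 7.07, and its normal levels were 8.81, 8.63 and 8.21. Here the third wild-type lymphoma lay among the Dnmt3b-deficient ones, so the tumor groups overlapped.

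H2-Eb1, the β chain of the E molecule, kept to another range. It had levels of 5.08, 6.34 and 5.58 in the Dnmt3b-deficient lymphomas and 5.87, 5.79 and 5.55 in the wild-type lymphomas. The pre-tumor samples had 5.49 and 5.44, and the normal thymocytes 5.37, 5.79 and 5.46. Both pre-tumor samples lay below every wild-type lymphoma, while every other pair of groups overlapped, and the highest and the lowest sample were both Dnmt3b-deficient lymphomas. Mice of the H2q haplotype, to which FVB belongs, make no α chain of the E molecule. Whether the probes match the alleles of this strain was not tested.

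**Figure D1:**
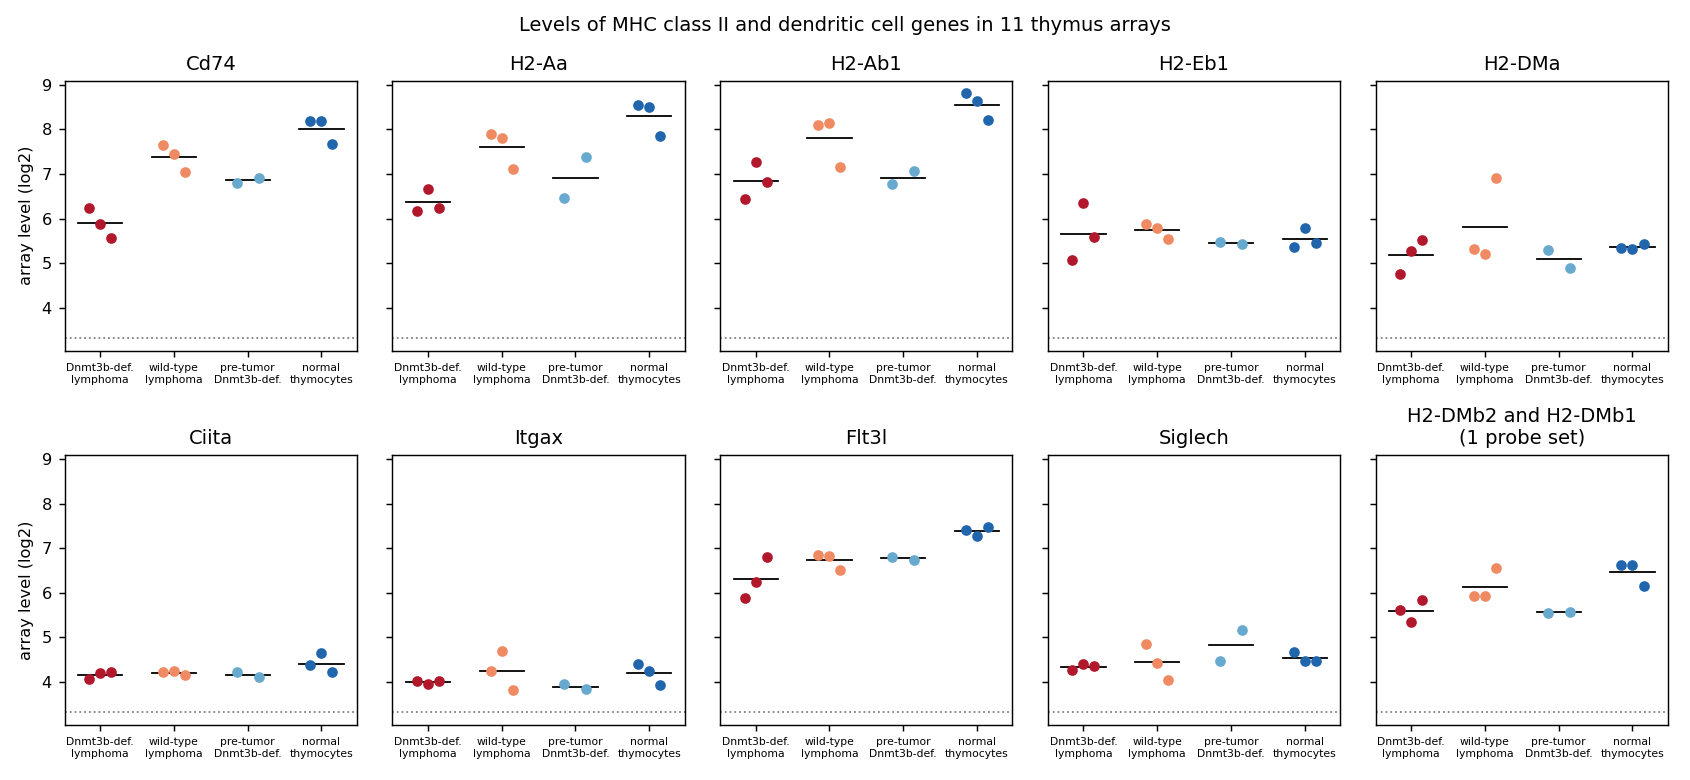
Array level (log2) of each gene in each of the 11 samples, with group means as lines and the floor of 3.32 as a dotted line. The Dnmt3b-deficient lymphomas lie lowest for Cd74, with means of 5.90 against 8.02 in normal thymocytes, while for H2-Eb1 the Dnmt3b-deficient lymphomas overlap every other group.

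Among peptide editors, H2-DMa, the α chain of H2-DM, had levels of 4.77, 5.27 and 5.52 in the Dnmt3b-deficient lymphomas and 5.32, 5.20 and 6.91 in the wild-type lymphomas. It had 5.29 and 4.89 in the pre-tumor samples and 5.35, 5.31 and 5.44 in the normal thymocytes. A single wild-type lymphoma, the third, stood well above all other samples. The probe set shared by H2-DMb2 and H2-DMb1, the β chains, had 5.61, 5.34 and 5.85 in the Dnmt3b-deficient lymphomas and 5.92, 5.92 and 6.57 in the wild-type lymphomas. The pre-tumor samples had 5.56 and 5.58, and the normal thymocytes 6.63, 6.63 and 6.15. The share of each gene in this signal cannot be read.

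Ciita was close to the floor and spanned a narrow range, with 4.06, 4.21 and 4.22 in the Dnmt3b-deficient lymphomas and 4.22, 4.25 and 4.15 in the wild-type lymphomas. It had 4.22 and 4.12 in the pre-tumor samples and 4.39, 4.64 and 4.22 in the normal thymocytes. The tumor groups overlapped.

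The genes of dendritic cells were low or moderate. Itgax, which encodes CD11c, had levels of 4.01, 3.96 and 4.01 in the Dnmt3b-deficient lymphomas and 4.24, 4.70 and 3.82 in the wild-type lymphomas, with 3.96 and 3.84 in the pre-tumor samples and 4.40, 4.26 and 3.94 in the normal thymocytes. Siglech, a receptor of plasmacytoid dendritic cells, had 4.26, 4.41 and 4.35 in the Dnmt3b-deficient lymphomas and 4.86, 4.43 and 4.04 in the wild-type lymphomas, with 4.48 and 5.17 in the pre-tumor samples and 4.67, 4.48 and 4.46 in the normal thymocytes. For both genes the tumor groups overlapped. Flt3l encodes the cytokine that drives dendritic cell development and is made by many cell types. Its levels were 5.89, 6.23 and 6.81 in the Dnmt3b-deficient lymphomas, 6.84, 6.83 and 6.51 in the wild-type lymphomas, 6.81 and 6.74 in the pre-tumor samples, and 7.40, 7.27 and 7.47 in the normal thymocytes. Every normal sample was above every other sample for Flt3l.

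Comparisons were made with limma, with p-values adjusted by Benjamini-Hochberg over all 28939 probe sets and a threshold of 0.05. Each difference is the mean log2 level of the first-named group less that of the second, and SE is the standard error of the difference. The 3 comparisons with normal thymocytes share those control samples. Shares and medians over all tested probe sets also include those at the floor on every array, which cannot be called. None of the 9 genes was at the floor on any array. In whole tissue or mixed cells, fewer cells of a type and less RNA per cell cannot be told apart.

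The Dnmt3b-deficient lymphomas were lower than normal thymocytes in the genes of the A molecule and its chaperone. Cd74 fell by 2.12 (SE 0.23, adjusted p = 0.00111), which is 4.34-fold lower. H2-Aa fell by 1.93 (SE 0.33, adjusted p = 0.00592), or 3.82-fold, and H2-Ab1 fell by 1.71 (SE 0.33, adjusted p = 0.00913), or 3.27-fold. Flt3l fell by 1.07 (SE 0.22, adjusted p = 0.0123), or 2.10-fold. The remaining 5 of the 9 genes did not pass: Ciita differed by -0.25 (adjusted p = 0.145), Itgax by -0.20 (0.653), Siglech by -0.20 (0.717), H2-DMa by -0.18 (0.973) and H2-Eb1 by 0.13 (0.958). In all, 4 of the 9 fell and 0 rose, against a background of 10.5% of tested probe sets that fell, and the median difference was -0.25 against 0 over all tested. All Dnmt3b-deficient lymphomas were below all normal samples for 6 of the 9, against 17.2% of tested probe sets, for Ciita by a gap under 0.01. The shared H2-DMb probe set also fell by 0.87 (SE 0.22, adjusted p = 0.0308), under 11 of 17 alternative settings. Cd74, H2-Aa and H2-Ab1 passed under each of the 17. Flt3l passed under 16 of them and missed with only these 2 groups in the fit (adjusted p = 0.0667).

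The pre-tumor Dnmt3b-deficient thymocytes also had lower levels of Cd74, H2-Aa and H2-Ab1 than normal thymocytes. These groups differ in the MYC transgene, Dnmt3b genotype and possibly sorting, which cannot be told apart here. Cd74 fell by 1.15 (SE 0.26, adjusted p = 0.0206), H2-Aa fell by 1.38 (SE 0.37, adjusted p = 0.0379) and H2-Ab1 fell by 1.63 (SE 0.36, adjusted p = 0.0197), which are 2.23-fold, 2.61-fold and 3.09-fold lower. The shared H2-DMb probe set fell by 0.90 (SE 0.25, adjusted p = 0.0422), under 8 of 17 alternative settings. Flt3l differed by -0.61 (adjusted p = 0.136) and Siglech by 0.29 (adjusted p = 0.549). Ciita differed by -0.25 (adjusted p = 0.188), Itgax by -0.30 (0.485), H2-DMa by -0.28 (0.871) and H2-Eb1 by -0.08. With that, 3 of the 9 fell and 0 rose, against a background of 9.88%. The median difference was -0.30 against -0.02 over all tested. For 6 of the 9, both pre-tumor samples were below all normal samples, against 27.3% of tested probe sets. Among these 6, the highest pre-tumor level of Ciita was 4.2151 and its lowest normal level 4.2156. For H2-DMa these levels were 5.29 and 5.31. The calls of Cd74, H2-Aa and H2-Ab1 rest on few samples. Without the first or second normal sample, or without the first or second pre-tumor sample, 0 of the 9 were called: the adjusted p of Cd74 was then 0.0577, 0.0646, 0.0838 and 0.108, that of H2-Aa 0.0959, 0.107, 0.193 and 0.0534, and that of H2-Ab1 0.0559, 0.0591, 0.0883 and 0.0922. H2-Aa also missed without any of 4 tumor samples, the first and second wild-type (0.0514 and 0.0578) and the first and the third Dnmt3b-deficient (0.0537 and 0.0574).

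The wild-type lymphomas were not called different from normal thymocytes for any of the 9 genes in limma at an adjusted p under 0.05, against a background of 19.9% in either direction (10.3% lower); 2 of the 9 had an unadjusted p under 0.05. Cd74 differed by -0.63 (SE 0.23, 95% interval -1.18 to -0.08, adjusted p = 0.109), H2-Aa by -0.69 (interval -1.46 to 0.08, adjusted p = 0.210) and H2-Ab1 by -0.75 (interval -1.51 to 0.01, adjusted p = 0.168). Flt3l differed by -0.65 (adjusted p = 0.0793), H2-DMa by 0.44 (0.607), Ciita by -0.21 (0.220), H2-Eb1 by 0.20 (0.796), Siglech by -0.09 (0.969) and Itgax by 0.06. The shared H2-DMb probe set differed by -0.33 (adjusted p = 0.392). All wild-type lymphomas were below all normal samples for Cd74, H2-Ab1 and Flt3l, 3 of the 9, against 18.9% of tested probe sets. For Cd74 the gap between the groups was smaller than 0.01. Flt3l passed without the first or the third Dnmt3b-deficient lymphoma (adjusted p = 0.0373 and 0.0160), with those 2 groups alone (0.0292) and without the probe sets at the floor (0.0436).

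The lymphomas differ in both Dnmt3b genotype and the Cre transgene, which cannot be told apart here. The comparison between them called 0 of the 9 genes with limma, against 0.00691% of tested probe sets, which is 2 of 28939. An unadjusted p under 0.05 was seen for 3 of the 9 and for 1823 of the 28939. Cd74 differed by -1.49 (SE 0.23, 95% interval -2.03 to -0.94, unadjusted p = 0.000292, adjusted p = 0.268), which is 2.81-fold lower in the Dnmt3b-deficient lymphomas. H2-Aa differed by -1.24 (SE 0.33, interval -2.02 to -0.47, adjusted p = 0.602) and H2-Ab1 by -0.96 (SE 0.33, interval -1.72 to -0.20, adjusted p = 0.728). All 3 Dnmt3b-deficient lymphomas were below all wild-type ones for Cd74 and H2-Aa, 2 of the 9, against 3.34% of tested probe sets. All 9 differences were negative, with a median of -0.42 against 0 over all tested probe sets, but most were small, such as -0.04 for Ciita and -0.07 for H2-Eb1. H2-DMa differed by -0.62 (adjusted p = 0.930, interval -1.66 to 0.41), Flt3l by -0.42 (adjusted p = 0.845), Itgax by -0.26 (adjusted p = 0.946) and Siglech by -0.10. The shared H2-DMb probe set differed by -0.54 (adjusted p = 0.774), with all Dnmt3b-deficient lymphomas below all wild-type ones. The Cd74 difference exceeded the spread between tumors of a genotype and did not pass after adjustment, with an adjusted p of 0.0782 to 0.734 over the 17 settings.

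Against the pre-tumor thymocytes of the same genotype, the Dnmt3b-deficient lymphomas also had 0 of the 9 genes called by limma, against 0.0691% of tested probe sets. Of the 9, 1 had an unadjusted p under 0.05, namely Cd74, which differed by -0.96 (SE 0.26, 95% interval -1.57 to -0.35, adjusted p = 0.289). Cd74 and Siglech, 2 of the 9, had all tumors below both pre-tumor samples, against 7.83% of tested probe sets. H2-Ab1 differed by only -0.08, with an interval of -0.93 to 0.77, and H2-Aa by -0.55 (adjusted p = 0.747). Siglech differed by -0.48 (adjusted p = 0.633), Flt3l by -0.46 (adjusted p = 0.616), H2-Eb1 by 0.21, Itgax by 0.10 and H2-DMa by 0.09. Ciita differed by less than 0.01 and the shared H2-DMb probe set by 0.03.

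**Figure D2:**
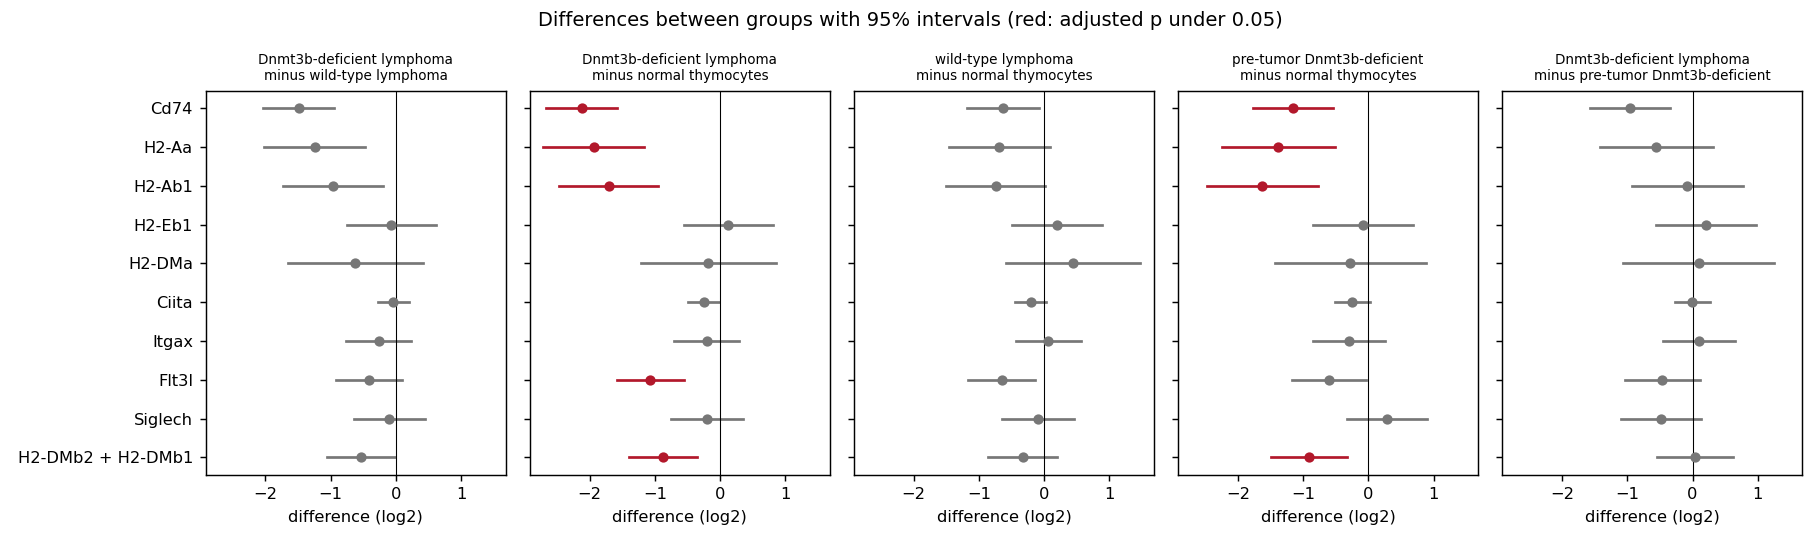
Difference in log2 level between groups for each gene (points) with 95% intervals (lines) in the 5 comparisons; red marks an adjusted p under 0.05. Cd74, H2-Aa and H2-Ab1 are red against normal thymocytes in the Dnmt3b-deficient lymphomas, with differences of -2.12, -1.93 and -1.71, and in the pre-tumor samples.

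Other genes of the class II pathway were called in both directions. Of 9 measured genes for further chains, peptide loading and turnover, the Dnmt3b-deficient lymphomas had 3 that rose and 1 that fell against normal thymocytes, the wild-type lymphomas 2 and 1, and the pre-tumor thymocytes 3 and 1. The background of tested probe sets that rose was 9.70%, 9.58% and 9.69%, and that of those that fell was 10.5%, 10.3% and 9.88%. The count of 1 that fell in each group is near that share. H2-Eb2, a further β chain gene beside H2-Eb1, had levels of 6.12, 7.00 and 6.79 in the Dnmt3b-deficient lymphomas, 6.87, 7.28 and 6.88 in the wild-type lymphomas and 5.42 and 5.71 in the pre-tumor samples, against 3.70, 4.86 and 4.01 in the normal thymocytes. Every sample with the MYC transgene was above every normal sample. H2-Eb2 rose in all 3 groups, with differences of 2.45 (adjusted p = 0.00255) for the Dnmt3b-deficient lymphomas, 2.82 (0.00178) for the wild-type lymphomas and 1.38 (0.0417) for the pre-tumor samples, the last under 8 of 17 alternative settings only. Its promoter, printed above, holds the same X and Y box arrangement as that of H2-Aa, whose level fell in the Dnmt3b-deficient lymphomas. Whether the boxes bear on either level was not tested.

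H2-Oa, which encodes the α chain of the H2-DM inhibitor H2-O, had levels of 5.05, 5.58 and 5.47 in the Dnmt3b-deficient lymphomas, 5.39, 5.28 and 5.21 in the wild-type lymphomas and 5.75 and 5.35 in the pre-tumor samples, against 6.28, 6.04 and 6.31 in the normal thymocytes. It fell in these groups, with differences of -0.84 (adjusted p = 0.00974), -0.91 (0.00771) and -0.66 (0.0419), the last under 6 of 17 settings. March8, a ubiquitin ligase, rose, with differences of 1.12 (adjusted p = 0.00285), 0.98 (0.00552) and 0.82 (0.0179), the last under 13 of 17 settings. Ifi30, a reductase that opens disulfide bonds of endosomal antigens, rose by 1.27 (adjusted p = 0.0437) in the Dnmt3b-deficient lymphomas, and Lgmn, a lysosomal endopeptidase, by 1.27 (adjusted p = 0.0454) in the pre-tumor samples, under 5 and 6 of 17 settings. Ctss, the protease cathepsin S that trims the invariant chain, had 6.16, 6.89 and 5.68 in the Dnmt3b-deficient lymphomas and 8.09, 9.06 and 6.17 in the wild-type lymphomas, with normal levels of 7.81, 7.63 and 7.66. It did not pass in any comparison, with -1.46 (adjusted p = 0.201) in the Dnmt3b-deficient lymphomas against normal thymocytes.

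Several factors that bind class II promoters had lower levels than in normal thymocytes. Of 8 probe sets for 7 genes, 5 were down and 0 up at the threshold in the Dnmt3b-deficient lymphomas, 3 were down in the wild-type lymphomas and 2 in the pre-tumor samples, each against normal thymocytes, beside 10.5%, 10.3% and 9.88% of all tested probe sets. Rfxank, a subunit of the RFX complex, had 4.62, 5.09 and 5.40 in the Dnmt3b-deficient lymphomas, 5.09, 5.11 and 5.37 in the wild-type lymphomas and 5.42 and 5.38 in the pre-tumor samples, against 6.43, 6.42 and 6.15 in the normal thymocytes. It fell in each, with differences of -1.29 (adjusted p = 0.00331), -1.14 (0.00608) and -0.93 (0.0217), the last under 12 of 17 settings. Every normal sample was above every other sample. Rfx5 differed by -0.66 (adjusted p = 0.0212) and Rfxap by -0.39 (adjusted p = 0.0389) in the Dnmt3b-deficient lymphomas, under 11 and 6 of 17 settings. Nfya and Nfyc, of the Y box factor NF-Y, fell there, with differences of -0.73 (adjusted p = 0.00588) and -0.63 (adjusted p = 0.00555). Both also fell in the wild-type lymphomas, by -0.52 (adjusted p = 0.0247, under 14 of 17 settings) and -0.79 (adjusted p = 0.00270). Nfyc was called lower in the pre-tumor samples too, under 12 of 17 settings. A second Nfyc probe set differed by -0.46 (adjusted p = 0.129) in the Dnmt3b-deficient and -0.58 (0.0623) in the wild-type lymphomas.

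The route by which interferon-γ induces Ciita was represented by 7 probe sets for 6 genes. Against normal thymocytes, 3 of the 7 fell in each of the other 3 groups, and 1 rose in the wild-type lymphomas. Of all tested probe sets, 10.5%, 10.3% and 9.88% fell in the Dnmt3b-deficient lymphomas, wild-type lymphomas and pre-tumor samples. In the wild-type lymphomas 9.58% rose, and the count of 1 is near that share. Ifngr1, the ligand-binding receptor chain, had levels of 7.66, 8.00 and 8.15 in the Dnmt3b-deficient lymphomas, 7.18, 7.31 and 7.22 in the wild-type lymphomas and 8.27 and 7.80 in the pre-tumor samples, against 10.30, 9.87 and 10.06 in the normal thymocytes. It fell in each, with differences of -2.14 (adjusted p = 0.000418), -2.84 (0.000252) and -2.04 (0.00142). Ifngr2, the other receptor chain, fell as well, with differences of -1.55 (adjusted p = 0.000202), -1.64 (0.000281) and -0.94 (0.00276), the last under 16 of 17 settings. Irf1, a transcription factor induced by interferon, fell on 1 probe set, with differences of -1.01 (adjusted p = 0.000706), -1.12 (0.000726) and -0.54 (0.0136), the last under 15 of 17 settings, but its other probe set differed by 0.18 (adjusted p = 0.674) in the Dnmt3b-deficient lymphomas. Jak1, a receptor-associated kinase, rose by 0.86 (adjusted p = 0.0310) in the wild-type lymphomas, under 12 of 17 settings. Ifng itself passed in no comparison.

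**Figure D3:**
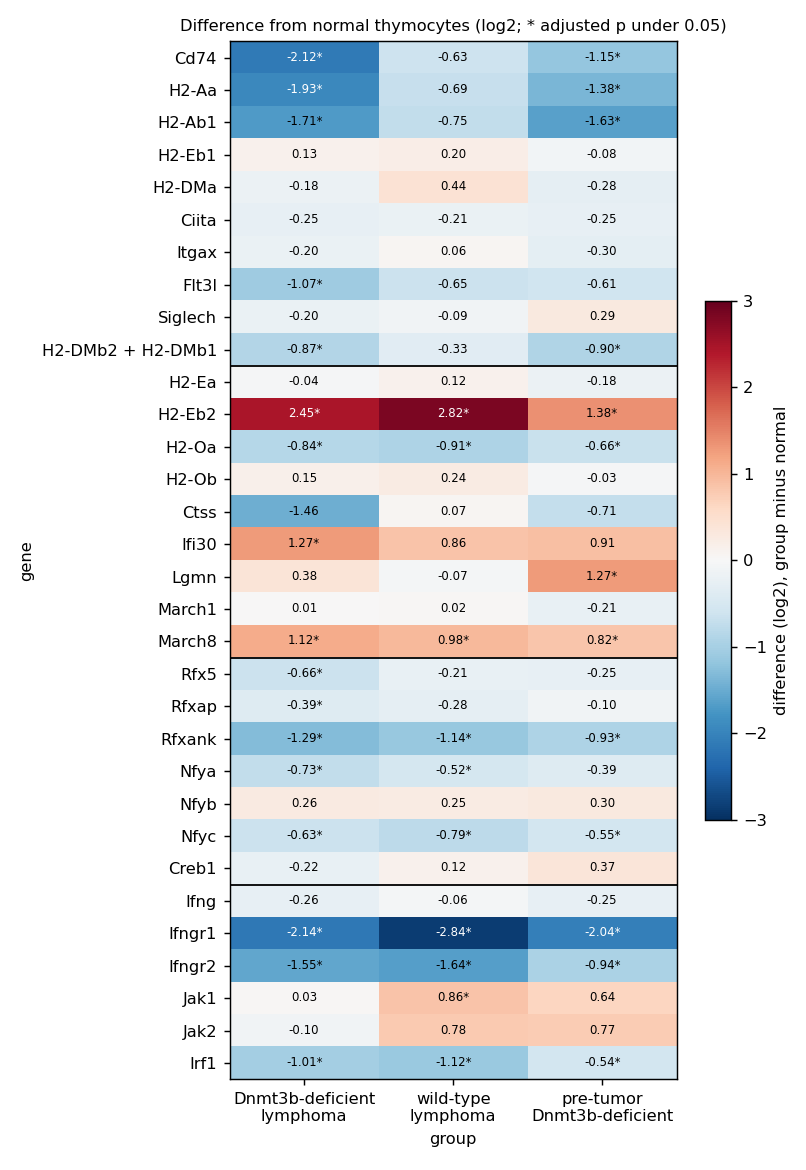
Difference from normal thymocytes (log2, colour and number) in the 3 other groups, for the studied genes, other class II genes, class II transcription factors and the interferon-γ route, with stars at an adjusted p under 0.05. The first of the 2 probe sets is drawn for Irf1 and Nfyc. H2-Eb2 is red at 2.45, 2.82 and 1.38, while Ifngr1 is blue at -2.14, -2.84 and -2.04.

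Markers of cells that make class II were measured beside these genes. Against normal thymocytes, 3 of 12 further dendritic cell markers were called lower and 0 higher in the Dnmt3b-deficient lymphomas, 2 lower in the wild-type lymphomas and 4 lower in the pre-tumor samples, beside 10.5%, 10.3% and 9.88% of all tested probe sets called lower. The count in the wild-type lymphomas is near that background. Irf8, a transcription factor of dendritic cells that other blood cells also use, fell in each, with differences of -0.77 (adjusted p = 0.00208), -0.71 (0.00319) and -0.56 (0.0138), the last under 15 of 17 settings. Ccl22, a chemokine of dendritic cells and macrophages, had differences of -1.47 (adjusted p = 0.0224) and -1.45 (0.0372) in the Dnmt3b-deficient lymphomas and pre-tumor samples, under 12 and 7 of 17 settings. Cd83, a marker of mature dendritic cells, fell by 0.72 (adjusted p = 0.00724) in the Dnmt3b-deficient lymphomas, under 16 of 17 settings. Cd209a, a C-type lectin, differed by -0.40 (adjusted p = 0.0282) in the wild-type lymphomas and -0.63 (0.00878) in the pre-tumor samples, under 10 and 16 of 17 settings. Flt3, the receptor for the Flt3l product, fell by 0.35 (adjusted p = 0.0436) in the pre-tumor samples, under 3 of 17 settings. Clec9a, a defining marker of type 1 dendritic cells, was at the floor on all 11 arrays. The mean of the 12 markers was 4.36 to 4.56 in the Dnmt3b-deficient lymphomas, 4.47 to 4.65 in the wild-type lymphomas, 4.42 to 4.45 in the pre-tumor samples and 4.86 to 4.96 in the normal thymocytes. Of 7 measured plasmacytoid markers, 2 were called lower in Dnmt3b-deficient lymphomas, 1 in wild-type lymphomas and 0 in pre-tumor samples (2, 2 and 1 at an unadjusted p under 0.05 in limma), of which 1 of 7 is near the background. Spib, a transcription factor of plasmacytoid dendritic cells and B cells, differed by -0.82 (adjusted p = 0.0246) in the Dnmt3b-deficient and -0.87 (0.0200) in the wild-type lymphomas, under 12 of 17 settings each. Pacsin1 differed by -1.74 (adjusted p = 0.0229) in the Dnmt3b-deficient lymphomas, under 11 of 17 settings. Tlr7 was at the floor on all arrays. Their mean was 4.68 to 4.75, 4.64 to 5.04, 4.92 to 5.04 and 5.25 to 5.33 in the same 4 groups.

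Of 10 macrophage markers, 3 were called lower in each of the 3 groups, and 1 was called higher in the wild-type lymphomas. Of all tested probe sets, 10.5%, 10.3% and 9.88% were called lower in the Dnmt3b-deficient lymphomas, wild-type lymphomas and pre-tumor samples. In the wild-type lymphomas 9.58% were called higher, and the count of 1 is near that share. The 3 that fell were C1qa, C1qb and C1qc, the subunits of complement C1q that tissue macrophages make. C1qb passed under 12, 12 and 15 of 17 settings in the same 3 groups. C1qa differed by -1.32 (adjusted p = 0.00231) in the Dnmt3b-deficient lymphomas, -1.07 in the wild-type lymphomas and -1.42 (adjusted p = 0.00423) in the pre-tumor samples, while Itgam rose by 1.15 (adjusted p = 0.00904) in the wild-type lymphomas. Lyz2, the lysozyme of myeloid cells, read 5.15, 8.28 and 4.73 in the Dnmt3b-deficient lymphomas and 9.71, 10.41 and 6.23 in the wild-type lymphomas, and 4.94 and 5.08 in the pre-tumor samples against 8.09, 7.99 and 7.55 in the normal thymocytes; the tumor groups overlapped and the difference between them, -2.73, did not pass (adjusted p = 0.808). Adgre1, which encodes F4/80, lay between 3.32 and 3.49 on all arrays. The mean of the 10 markers was 4.44, 4.92 and 4.33 in the Dnmt3b-deficient lymphomas and 5.36, 5.55 and 4.68 in the wild-type lymphomas, 4.16 and 4.29 in the pre-tumor samples and 5.21, 5.32 and 4.99 in the normal thymocytes. The third wild-type lymphoma was the lowest of its group for Cd74, H2-Aa, H2-Ab1, Ctss, Lyz2 and this mean. That sample was also the lowest of its group for H2-Eb1, Ciita, Flt3l, Itgax and Siglech. The same held for the means of the dendritic, plasmacytoid, thymic epithelial and T cell lists. It was the highest of its group for H2-DMa, the shared H2-DMb probe set and the mean of the B cell list. The part of the macrophage markers in the class II differences was not tested.

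Markers of B cells, thymic epithelium and T cells were measured in the same way. Of 8 B cell markers, none was called in either lymphoma against normal thymocytes with limma (0 and 1 at an unadjusted p under 0.05), and their mean was 4.04 to 4.26 in the Dnmt3b-deficient lymphomas, 3.78 to 4.35 in the wild-type lymphomas, 4.42 to 4.88 in the pre-tumor samples and 4.25 to 4.38 in the normal thymocytes. Of 11 probe sets of thymic epithelial markers, 2 were called lower in Dnmt3b-deficient lymphomas, 1 in wild-type lymphomas and 3 in pre-tumor samples, beside 10.5%, 10.3% and 9.88% of all tested probe sets. The counts in the lymphomas lie near that background. Krt5 fell in each, with differences of -0.49 (adjusted p = 0.0281), -0.60 (0.0134) and -0.81 (0.00778), under 11, 15 and 15 of 17 settings. Their mean was 4.86 to 4.98, 4.59 to 4.92, 4.62 to 4.69 and 4.94 to 5.22 in the 4 groups. Of 9 T cell and thymocyte markers, 7, 8 and 4 fell, among them Cd4, with differences of -1.77 (adjusted p = 0.00343), -1.81 (0.00355) and -1.60 (0.0102), the last under 16 of 17 settings. Rag1, the recombinase of developing lymphocytes, differed by -5.91 (0.00345) in the Dnmt3b-deficient and -5.98 (0.00373) in the wild-type lymphomas. The T cell list had means of 8.31 to 8.43, 7.77 to 8.42, 8.95 to 9.52 and 10.40 to 10.50. No probe set of these marker lists was called between the lymphomas, or between Dnmt3b-deficient lymphomas and pre-tumor samples.

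**Figure D4:**
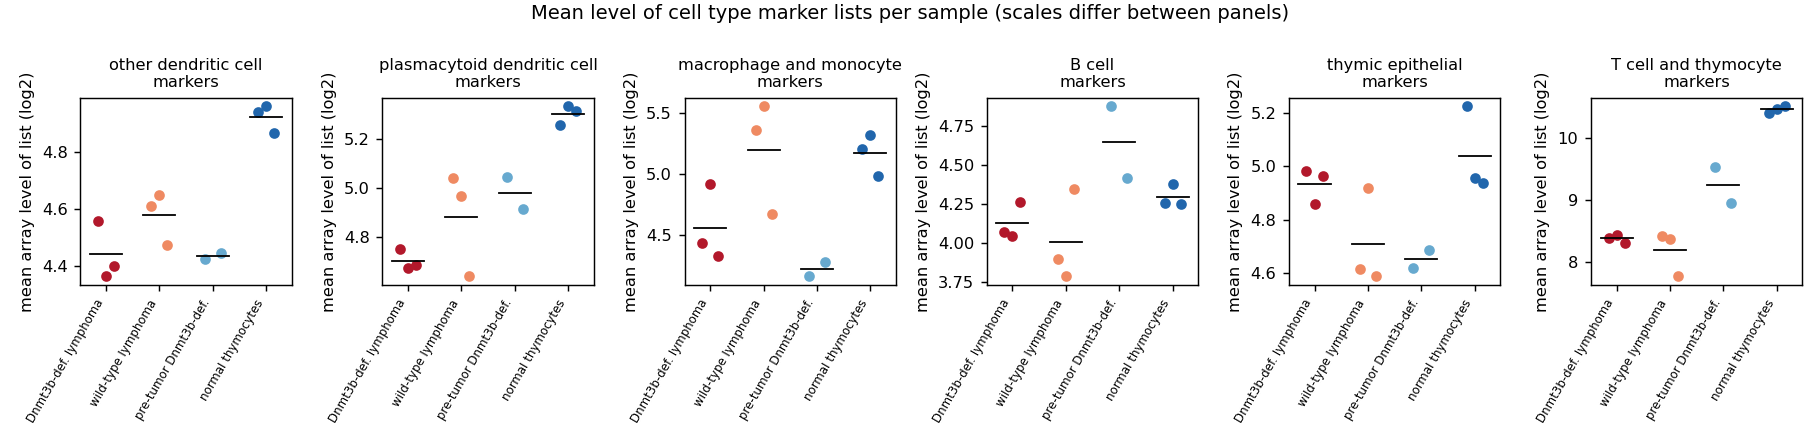
Mean array level (log2) of 6 marker lists in each sample (points), with group means as lines and a separate scale per panel. The T cell and thymocyte panel runs highest in normal thymocytes at 10.40 to 10.50, and the macrophage panel overlaps between the lymphomas.

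Cd74, H2-Aa and H2-Ab1 varied together across the 11 samples, with Pearson r of 0.934 between Cd74 and H2-Aa, 0.862 between Cd74 and H2-Ab1 and 0.957 between H2-Aa and H2-Ab1. These values include the differences between groups; after each group was centred on its mean they were 0.599, 0.441 and 0.858. H2-Eb1 had r of -0.09 with Cd74 and 0.238 with H2-Ab1. Flt3l had r of 0.725, 0.761 and 0.784 with Cd74, H2-Aa and H2-Ab1, and -0.440, 0.079 and 0.371 after centring. Ciita had r of 0.610, 0.685 and 0.737 with the same genes, and 0.269, 0.403 and 0.484 after centring. Among 14710 ranked genes, those closest to the mean of the 4 chain genes Cd74, H2-Aa, H2-Ab1 and H2-Eb1 were Dusp4 (r = 0.949), Dusp6 (0.938) and Marcksl1 (0.935), then Mettl9 (0.919), St3gal2 (0.910), Mgam (0.904), Cflar (0.902), Syf2 (0.898), Il4ra (0.895) and Mdp1 (0.893), over the same 11 samples. The median r of the ranked genes was 0.0989 and the 99th percentile was 0.815. Centred within groups, r of these 10 ran from 0.296 for Mgam to 0.840 for Mettl9. The samples share 4 groups, 1 array platform and 1 normalization.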

How the data were processed

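RNA from 11 thymus samples (300 ng each) was measured on Affymetrix whole-transcript arrays. The deposited values are log2 levels made by the authors with Partek and RMA, per the submitters' processing notes; versions and the genome build are not given in the sources used here. Gene names came from the platform annotation. Of 35512, the 6573 with the lowest ID numbers and no gene were left out as probable controls. The 28939 tested carry 1 symbol (21789), several (1621, not named) or none (5529).

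A linear model with a mean per group and no covariates was fitted over 4 groups (limma 3.58.1, R 4.3.3, lmFit and eBayes), with 7 residual and 0.46 prior degrees of freedom, and Benjamini-Hochberg adjusted p-values over all probe sets. The steps were tested on simulated data. Arrays have no read depth, and their number limits the precision. Named genes are the members, listed pathway or marker genes past the threshold or defining a cell type, and the 10 genes most like the chain genes. Ctss, Lyz2, Ifng and Cd79a, which did not pass, were named after their values were seen. The members and lists were chosen with earlier results of these data known. Replicate numbers did not pair samples across groups. Alternatives were quantile normalization, median centring, no floor probe sets, an intensity trend, 2 groups only, a replicate block and leaving out each sample.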

Additional observations from a re-analysis of the deposited data

How the results depend on the processing

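No group held more than 3 samples, and the array floor limits what can be read for dim genes such as Ciita. The members called in the Dnmt3b-deficient lymphomas against normal thymocytes numbered 4, and 3 to 5 under the alternatives; 0 were called between lymphomas, or against pre-tumor samples, under any of the 17. The 3 called in pre-tumor against normal thymocytes became 1 (Flt3l, adjusted p = 0.0417) with only those 2 groups, and 0 to 3 when 1 sample was left out. For wild-type lymphomas against normal thymocytes the 0 became 1 without floor probe sets (Flt3l), with the replicate block (Cd74, adjusted p = 0.0134) and with 2 groups (Flt3l), and 0 to 1 when 1 sample was left out. Same-numbered samples had r between -0.331 and 0.322 in 15 pairs, 3 of them over 0.1, so the numbers do not pair samples.

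Over all probe sets, pre-tumor against normal thymocytes gave 5662 calls, 3269 with the replicate block, 2250 with 2 groups and 1712 to 5636 when 1 sample was left out (lowest without the second pre-tumor sample). Wild-type lymphomas against normal thymocytes gave 5755, and 3664 to 5707 when 1 sample was left out (lowest without the first wild-type lymphoma). Dnmt3b-deficient lymphomas against pre-tumor samples gave 20 (9 higher, 11 lower), 9 with quantile normalization (0 higher, 9 lower), 29 with median centring (8 higher, 21 lower), 4 with the replicate block, 2 with 2 groups, and 8 to 118 when 1 sample was left out (118 and 51 without the first and the second tumor, 114 and 52 without the first and the second pre-tumor sample). Dnmt3b-deficient against wild-type lymphomas gave 2 (1 higher, 1 lower), 1 with quantile normalization, 6 with median centring (1 higher, 5 lower), 7 without floor probe sets, 1 with the intensity trend, 1 with the replicate block, and 1 to 88 when 1 sample was left out (88 and 5 without the third and the first wild-type lymphoma, 82, 9 and 20 without the first, the second and the third Dnmt3b-deficient one).

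Some uncalled member differences changed sign when 1 sample was left out, and the cause was not tested. In Dnmt3b-deficient lymphomas against pre-tumor samples, the replicate block also changed the sign of Ciita (0.032), H2-Ab1 (0.085) and H2-DMa (-0.16). For Dnmt3b-deficient lymphomas against pre-tumor samples with 1 sample left out, Ciita lay between -0.052 and 0.049, H2-Ab1 lay between -0.29 and 0.12, H2-DMa lay between -0.10 and 0.30 and H2-Eb1 lay between -0.13 and 0.50. For Dnmt3b-deficient against wild-type lymphomas with 1 sample left out, Ciita lay between -0.071 and 0.0083, H2-Eb1 lay between -0.41 and 0.23 and Siglech lay between -0.30 and 0.11. For Dnmt3b-deficient lymphomas against normal thymocytes with 1 sample left out, H2-DMa lay between -0.35 and 0.027 and H2-Eb1 lay between -0.21 and 0.42. For wild-type lymphomas against normal thymocytes with 1 sample left out, H2-DMa lay between -0.11 and 0.74, Itgax lay between -0.16 and 0.27 and Siglech lay between -0.30 and 0.11. For pre-tumor against normal thymocytes with 1 sample left out, H2-Eb1 lay between -0.17 and 0.046 and Siglech lay between -0.059 and 0.64.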

Other observations

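Of 8 B cell markers, 1 was called higher and 0 lower in the pre-tumor against normal thymocytes. That count is near the 9.69% of all tested probe sets called higher. Of the 8 differences, 6 were positive and 2, those of Cd79b and Cd22, were negative. Blnk, an adaptor of B cell receptor signalling, had levels of 5.10 and 4.37 in the pre-tumor samples and 3.90, 3.72 and 4.06 in the normal thymocytes, and rose by 0.84 (limma, adjusted p = 0.0349, passing under 9 of 17 alternative settings). Cd79a, a chain of the B cell receptor, read 6.10 and 4.58 in the pre-tumor samples and 4.48, 4.72 and 4.16 in the normal thymocytes, so that the first pre-tumor sample stood apart while the second lay among the normal samples. H2-Aa, which B cells also express, read 6.46 in that first pre-tumor sample and 7.38 in the other. In the same order, Cd74 read 6.80 and 6.92, H2-Ab1 6.77 and 7.07, and H2-Eb1 5.49 and 5.44. The part of B cells in these class II levels was not tested.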
